A study of Mus musculus with 12 samples.

Results

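The genes described here are 7 genes of the major histocompatibility complex (MHC) class II pathway, by which antigen-presenting cells show peptides to CD4+ T cells. They are H2-Aa, H2-Ab1 and H2-Eb1, which encode chains of the peptide-binding molecules, H2-DMa and H2-DMb1, Cd74 and Ciita. Every probe whose gene name in the scanner files equals one of these symbols was taken, which gave 8 probes for 7 of the 34844 gene names on the array. RNA of the left ventricle, taken as the free wall with the apex and without the septum, was measured in 12 mice aged 6 months on one-colour Agilent arrays, 4 per group. In the TrbE10 group (Nkx2-5ΔTrbE10, labelled Nkx2-5Δtrab) tamoxifen was given to the pregnant mothers on E10.5 and E11.5, and in the TrbE14 group (Nkx2-5ΔTrbE14, labelled Nkx2-5Δcomp) at E13.5 and E14.5. Both mutant groups carried floxed Nkx2-5 alleles and a tamoxifen-inducible Cre recombinase expressed from the Cx40 gene, which is active in trabecular myocardium, and Nkx2-5 is a cardiac transcription factor. According to the methods the controls were littermates with the same floxed alleles and no Cre, whereas their labels say that they were not injected. Cre, the Cx40 allele that carries it, tamoxifen and the loss of Nkx2-5 therefore cannot be told apart. Pups of injected mothers were delivered by caesarean section and raised by foster mothers.

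Class II molecules are pairs of an alpha and a beta chain, which in the mouse form the I-A molecule (H2-Aa with H2-Ab1) and the I-E molecule (H2-Ea with H2-Eb1). Cd74, the invariant chain, holds the pair together and blocks its groove until cathepsins in the endosome have cut it down to a short peptide, and the H2-DM pair then exchanges that peptide for one from a foreign or self protein. The genes are transcribed together under the coactivator Ciita, which has no DNA-binding domain of its own and is recruited by the RFX, CREB and NF-Y factors bound at the X and Y boxes of their promoters. Dendritic cells, B cells and a share of the resident macrophages carry class II molecules in the heart, and interferon gamma can induce them in other cells.

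The promoters are shown because the X and Y boxes are where the factors that recruit Ciita bind. RefSeq promoter windows of GRCm38.p6, from 250 bases before to 50 after the annotated gene start, were at hand for 4 of the 7 members, H2-Aa, H2-Eb1, H2-DMa and H2-DMb1. An X box was searched for as CTNGNAAC and a Y box as TGATTGG, on both strands, and a pair was counted when the Y box began 25 to 40 bases after the X box on the same strand. These letters and this spacing were chosen with the class II promoters in view. The pair was found in 3 of the 4 members, and the stretch holding it is given 5′ to 3′ on the strand of the gene, with the X box and then the Y box in capitals.
H2-Aa, chr17:34287861-34287913, minus strand: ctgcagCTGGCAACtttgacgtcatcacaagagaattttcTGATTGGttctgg
H2-Eb1, chr17:34305767-34305818, plus strand: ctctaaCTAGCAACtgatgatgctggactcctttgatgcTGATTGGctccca
H2-DMb1, chr17:34153088-34153140, plus strand: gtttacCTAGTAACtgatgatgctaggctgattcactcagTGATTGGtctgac
The X box began 84 bases before the gene start in H2-Aa, 94 in H2-Eb1 and 97 in H2-DMb1, and the Y box followed it by 34, 33 and 34 bases. Among all 32851 promoter windows, 13.2% held the X box letters, 7.82% the Y box letters and 0.0609%, or 20 windows, the pair. Neither window of H2-DMa held the letters of either box, and among the 12 other class II pathway genes with a window H2-Ob alone held the pair. Boxes that depart from these letters were not searched for.

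Probes that exceeded background clearly on 3 or more arrays of any group of 4 were kept for testing, which left 24593 probes for 18021 gene names. Values are log2 signals after quantile normalization, and they can be compared between arrays but not between probes. The targeted gene, Nkx2-5, measured 11.89 to 12.23 in control, 11.21 to 11.67 in TrbE10 and 11.12 to 11.63 in TrbE14 hearts, so that neither mutant group overlapped the control group. The log2 difference from control was -0.66 in TrbE10 (SE 0.14, adjusted p = 0.0459) and -0.59 in TrbE14 hearts (SE 0.14, adjusted p = 0.106). The 8 cardiomyocyte genes checked were all measured, and Myh6, the alpha myosin heavy chain, lay at 17.58 or above on every array by its brighter probe. The TrbE10 arrays were on a different slide from the other groups, which shared 1 slide, so in both comparisons that involve TrbE10 the slide and the group cannot be told apart. TrbE14 replicate 3 stood apart, with 1322 probes lying more than 0.8 log2 units beyond all other arrays, against 112 to 242 on each of the others. The samples are whole tissue, in which fewer class II-bearing cells and less RNA per cell cannot be told apart.

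H2-Aa, the alpha chain of I-A, had the largest difference from control among the members, and its TrbE14 values lay below every value of the other groups. Its probe (A_52_P343306, mm9 chr17:34421285-34421344) measured 9.80, 9.83, 10.53 and 9.82 in the control hearts, 9.64, 9.77, 10.10 and 10.42 in the TrbE10 hearts, and 8.84, 8.77, 9.30 and 8.85 in the TrbE14 hearts. Control and TrbE10 hearts overlapped, with TrbE10 replicates 1 and 2 below every control heart, and even the highest TrbE14 heart, replicate 3, was below the lowest TrbE10 heart. H2-Aa was 2.08-fold lower in TrbE14 than in control hearts, with a log2 difference of -1.05 (SE 0.21, 95% interval -1.52 to -0.59). It was 2.06-fold higher in TrbE10 than in TrbE14 hearts (log2 difference 1.05, SE 0.21), and TrbE10 differed from control by -0.0080 (95% interval -0.47 to 0.46). The adjusted p was 0.0562 for TrbE14 against control, 0.269 for TrbE10 against TrbE14 and 0.99 for TrbE10 against control, so H2-Aa passed the threshold of 0.05 in none of the comparisons. Alone, the exact two-sided permutation test gave p = 0.0286 both for TrbE14 against control and for TrbE10 against TrbE14, the smallest value that the 70 label orders allow.

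H2-Eb1, the beta chain of I-E, also had its lowest mean in TrbE14 hearts. Its probe (A_55_P2156731, chr17:34453075-34453134) measured 12.41, 12.36, 12.99 and 12.23 in control, 12.18, 12.26, 12.82 and 13.16 in TrbE10, and 11.36, 11.48, 12.18 and 11.45 in TrbE14 hearts. The TrbE14 values lay below all control values, narrowly so for replicate 3, which overlapped the TrbE10 values. The log2 difference was -0.87 for TrbE14 against control (SE 0.26, adjusted p = 0.191), 0.98 for TrbE10 against TrbE14 (SE 0.26, adjusted p = 0.518) and 0.11 for TrbE10 against control (SE 0.26, adjusted p = 0.876).

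H2-Ab1, the beta chain of I-A, was measured by a pair of overlapping probes. The brighter probe (A_55_P1962747, chr17:34406296-34406355) gave 12.55, 12.37, 13.38 and 12.58 in control, 12.44, 12.69, 13.19 and 13.45 in TrbE10, and 11.62, 11.92, 12.59 and 12.06 in TrbE14 hearts. TrbE14 replicates 1, 2 and 4 lay below every control and TrbE10 heart, whereas replicate 3 lay among them. The log2 difference was -0.67 for TrbE14 against control (SE 0.28, adjusted p = 0.339), 0.89 for TrbE10 against TrbE14 (SE 0.28, adjusted p = 0.675) and 0.22 for TrbE10 against control (SE 0.28, adjusted p = 0.748). The second probe (A_55_P2146560, chr17:34406305-34406363) gave -0.70, 0.82 and 0.12 for the same comparisons. The pair shares 51 bases with 1 mismatch, T21C, where positions are counted from 1 at the 5′ end of the stretches below and the base of the first probe comes first, in capitals.
A_55_P1962747: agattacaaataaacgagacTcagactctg
A_55_P2146560: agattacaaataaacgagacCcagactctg
The first probe exceeded the second by 0.21 to 0.41 log2 units on 11 arrays and by 0.0044 in control replicate 2. Control replicate 2 was thus the only one of the 12 arrays on which the pair gave nearly the same signal, and overlapping probes are not independent measurements of the gene.

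Cd74, the invariant chain, had the smallest difference between TrbE14 and control among the 6 measured members. Its probe, on chromosome 18 (A_51_P284608), measured 12.06, 12.14, 12.65 and 11.75 in control, 12.26, 12.12, 12.88 and 12.87 in TrbE10, and 11.27, 11.45, 12.45 and 11.62 in TrbE14 hearts. Again 3 of the 4 TrbE14 hearts lay below every control heart and replicate 3 did not. The log2 difference was -0.45 for TrbE14 against control (95% interval -1.07 to 0.17, adjusted p = 0.498), 0.83 for TrbE10 against TrbE14 (0.21 to 1.46, adjusted p = 0.728) and 0.38 for TrbE10 against control (-0.24 to 1.00, adjusted p = 0.540).

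The H2-DM pair, which helps load peptides onto class II molecules inside the cell, gave smaller differences between TrbE10 and TrbE14 than the other measured members. H2-DMa (A_51_P473734, chr17:34274300-34274863) measured 7.64, 7.63, 8.37 and 7.75 in control, 8.04, 8.01, 7.85 and 8.23 in TrbE10, and 7.22, 7.40, 7.43 and 7.24 in TrbE14 hearts. All 4 TrbE14 hearts lay below all 8 others, and the TrbE10 hearts lay within the range of the controls. The log2 difference was -0.52 for TrbE14 against control (SE 0.16, adjusted p = 0.200) and 0.71 for TrbE10 against TrbE14 (SE 0.16, adjusted p = 0.364), and the exact permutation p was 0.0286 for both.
H2-DMb1 (A_51_P278868, chr17:34297109-34297168) measured 8.67, 8.81, 9.66 and 8.95 in control, 9.09, 9.10, 9.32 and 9.54 in TrbE10, and 8.50, 8.63, 8.77 and 8.24 in TrbE14 hearts. Here TrbE14 overlapped control only through its replicate 3, and lay below all TrbE10 hearts. The log2 difference was -0.49 for TrbE14 against control (SE 0.21, adjusted p = 0.338, exact permutation p = 0.0571) and 0.73 for TrbE10 against TrbE14 (SE 0.21, adjusted p = 0.566, exact permutation p = 0.0286). TrbE10 against control gave 0.19 (SE 0.16) for H2-DMa and 0.24 (SE 0.21) for H2-DMb1.

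**Figure D1:**
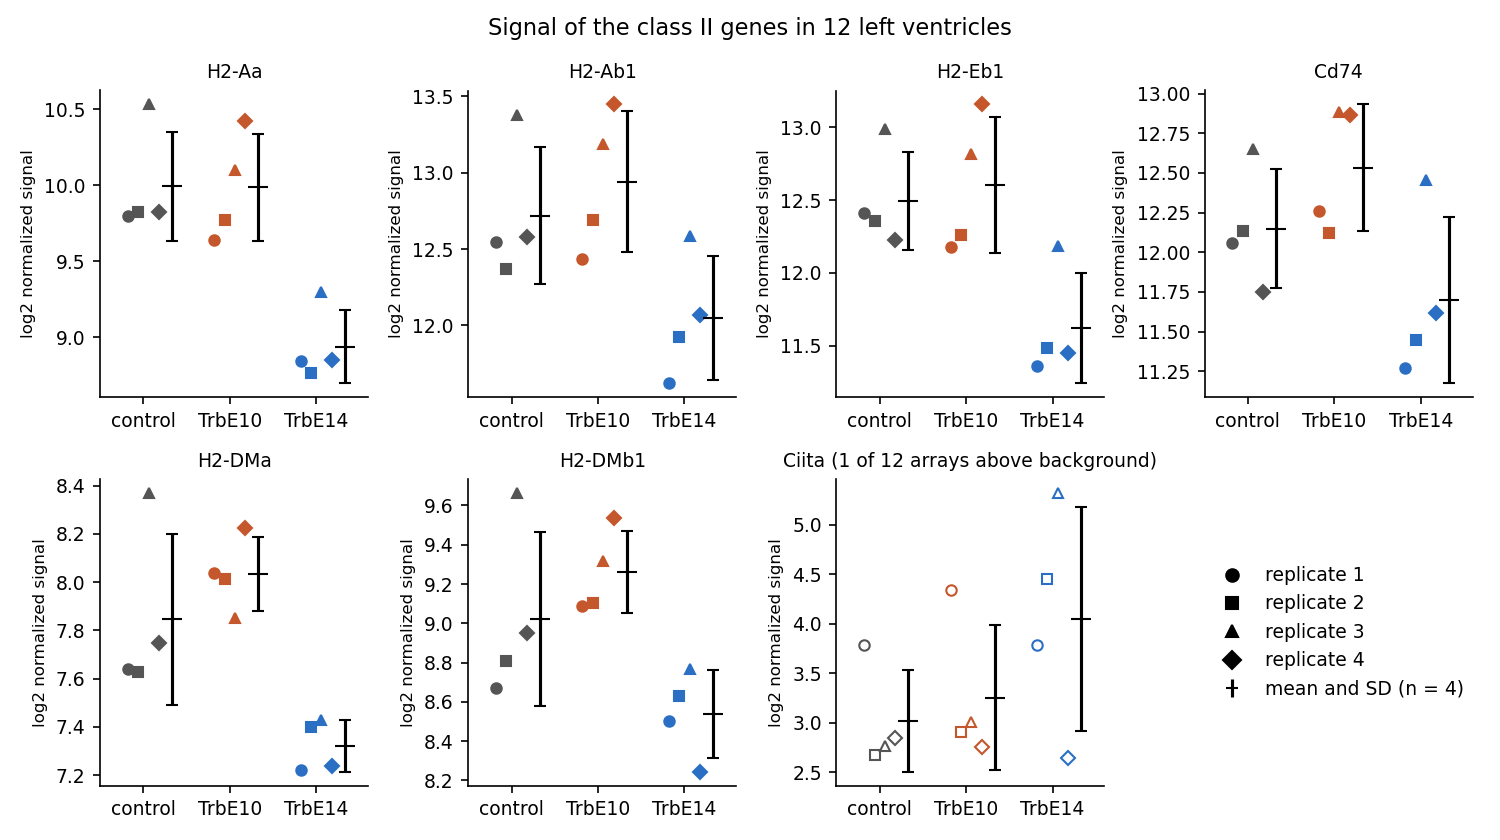
Each panel plots the log2 normalized signal of a class II gene (y axis, its own scale) by group (x axis), with a symbol for each of the 4 replicates and the mean and SD beside them. The TrbE14 mean is the lowest of the 3 groups for each of the 6 measured genes, the values lying between 8.77 and 9.30 for H2-Aa against 9.80 to 10.53 in control, while Ciita (open symbols) was above background on 1 of 12 arrays.

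Ciita, the coactivator on which transcription of these genes depends, could not be compared. Its probe (A_55_P2179074, chr16:10526568-10526627) was well above background on 1 of the 12 arrays, a TrbE14 array, and did not pass the filter. Its lowest and highest signals were 2.67 and 3.78 in control hearts, 2.75 and 4.34 in TrbE10 hearts, and 2.64 and 5.32 in TrbE14 hearts, the highest being replicate 3. These signals set no order of the groups. Ifng, which encodes interferon gamma, was well above background on 1 TrbE10 array and did not pass either.

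The other transcription factors of the pathway and the genes of interferon gamma signalling gave no call. Of the 17 genes listed, 14 were measured and 0 passed the test in any comparison by limma or SAM. At an unadjusted p under 0.05, 0 of 14 differed between either mutant group and control, and 1 was higher in TrbE10 than in TrbE14 (2.92% of all genes). Irf1, an interferon-induced factor, differed from control by -0.13 in TrbE10 (SE 0.33, adjusted p = 0.877) and by -0.32 in TrbE14 hearts (SE 0.33, adjusted p = 0.676). The largest differences from control in the list were those of Creb1, a factor that binds the X box region (-0.48 in TrbE14, SE 0.23, adjusted p = 0.390), and Socs1, a feedback inhibitor of the signal (-0.46 in TrbE14, SE 0.46, adjusted p = 0.665). For Creb1, 2 of the 4 TrbE14 arrays were well above background.

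Across the pathway, 6 of the 7 members were measured, each well above background on all 12 arrays, so none entered the comparison through 1 group alone. By limma 0 of the 6 members passed the adjusted test in TrbE10 against control, where 1.93% of the 18021 genes were called, in TrbE14 against control, where 0.66% were called, and in TrbE10 against TrbE14, where 0% were called. SAM at a false discovery rate of 5%, the test named in the methods, also called 0 of the 6 in each. At an unadjusted p under 0.05, 0 of 6 differed between TrbE10 and control (16.8% of all genes in either direction), 5 of 6 were lower in TrbE14 than in control (7.4% of all genes) and 6 of 6 were higher in TrbE10 than in TrbE14 (2.92%). All TrbE14 arrays lay below all control arrays for 3 of 6, H2-Aa, H2-Eb1 and H2-DMa (5.43% of all genes), and all TrbE10 arrays lay above all TrbE14 arrays for 3 of 6, H2-Aa, H2-DMa and H2-DMb1 (1.64%). Between TrbE10 and control the arrays of all 6 members overlapped, where 10.6% of all genes did not.

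The median log2 difference over the 6 members was -0.60 for TrbE14 against control, with values from -1.05 to -0.45, beside a median of -0.031 over all genes. For TrbE10 against TrbE14 it was 0.86, from 0.71 to 1.05, beside 0.0046 over all genes, and for TrbE10 against control it was 0.20, from -0.0080 to 0.38, beside -0.025. The comparisons share arrays, the control arrays for the first and last and a mutant group for the others, so they are not independent of each other. The members also share cells of origin and their arrays, and are not replicates of a condition. Without control replicate 3 the medians were -0.40 for TrbE14 and 0.40 for TrbE10 against control. Without TrbE14 replicate 3 the median was -0.78 for TrbE14 against control and 1.08 for TrbE10 against TrbE14, and H2-Aa then had an adjusted p of 0.0613 for TrbE14 against control. Within the slide that held both groups, a fit of the control and TrbE14 arrays alone gave H2-Aa an adjusted p of 0.0767.

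**Figure D2:**
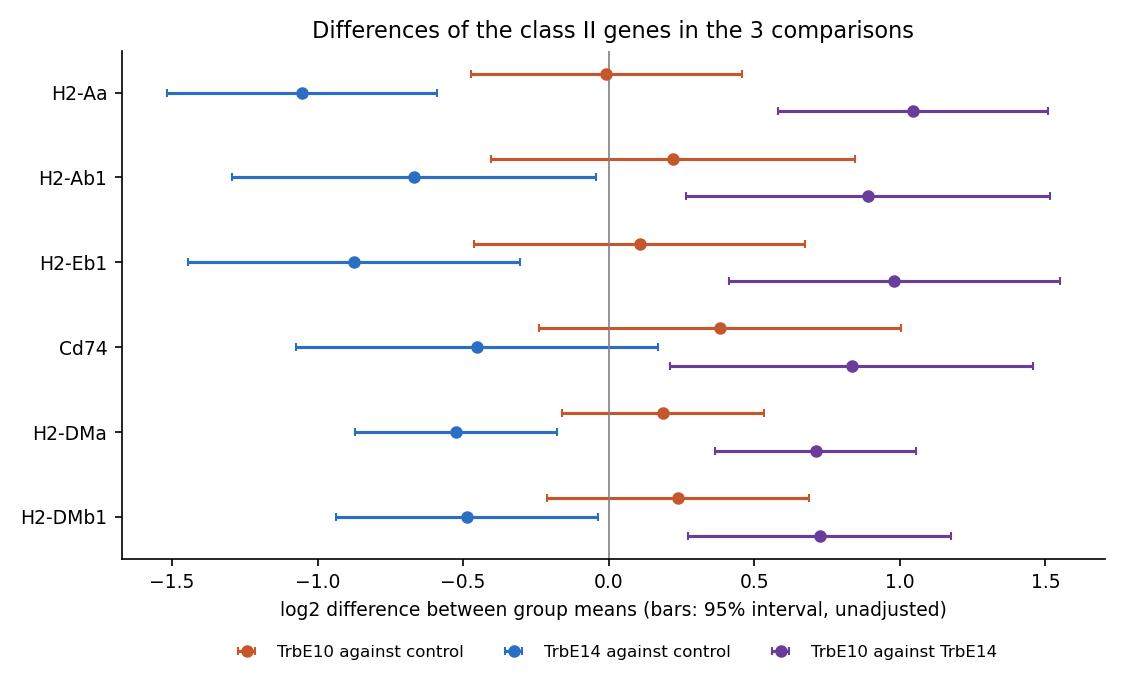
The log2 difference between group means (x axis) is plotted for the 6 measured class II genes (y axis) in the 3 comparisons, with bars for the 95% interval before adjustment for multiple tests. The TrbE14 against control values run from -1.05 (H2-Aa) to -0.45 (Cd74), the TrbE10 against TrbE14 values from 0.71 to 1.05, and the TrbE10 against control intervals all include 0.

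The 6 members varied together from heart to heart. Over the 12 arrays Pearson's r between pairs of members ranged from 0.74 to 0.97 (15 pairs, median 0.90), and after the mean of each group had been subtracted it ranged from 0.49 to 0.96 (median 0.86). These correlations are descriptive, since all members were read from the same 12 arrays. The mean of the 6 members, each centred on its own mean, was -0.021, -0.021, 0.72 and -0.029 in the control hearts, 0.065, 0.12, 0.49 and 0.73 in the TrbE10 hearts and -0.74, -0.60, -0.088 and -0.63 in the TrbE14 hearts. Control replicate 3, TrbE10 replicates 3 and 4 and TrbE14 replicate 3 were the highest of their groups. The group means were 0.16 ± 0.37 in control, 0.35 ± 0.32 in TrbE10 and -0.51 ± 0.29 in TrbE14 hearts (SD, n = 4 each).

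H2-Ea, the alpha chain that pairs with H2-Eb1, is named H2-Ea-ps in the files and is not expressed in mice of the b haplotype of the complex, such as C57BL/6. Its probe (A_51_P222741, chr17:34481469-34481528) was well above background in control replicate 2 alone, at 5.55, while the other 11 arrays lay between 2.44 and 2.59. That heart was also the one with no difference between the H2-Ab1 probes. Without that heart H2-Aa differed by -1.11 between TrbE14 and control (adjusted p = 0.0999).

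The 17 other genes of the class II pathway, which cut the invariant chain, edit the loaded peptide, send class II molecules to degradation or give the second signal to T cells, are given next. Of these, 12 were measured, 1 was called in TrbE10 against control (1.93% of all genes) and 0 in the other comparisons by limma. At an unadjusted p under 0.05, 3 were higher and 1 lower in TrbE10 against control (16.8% of all genes in either direction). In TrbE14 against control 1 was higher and 1 lower (7.4% of all genes were lower, and the share that were higher was not taken). In TrbE10 against TrbE14 2 were higher (2.92% of all genes). SAM called 1 in TrbE14 against control, Ctss, where it called 239 of 18018 genes in all. The median log2 difference was 0.046 in TrbE10 and 0.051 in TrbE14 hearts against control. H2-Eb2, H2-DMb2, H2-Oa and H2-Ob, the rest of the class II chains in the list, were among the 5 that did not pass the filter.

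Ctss, cathepsin S, which makes the last cuts in the invariant chain, rose in TrbE10 hearts. It measured 9.38, 9.66, 10.03 and 9.71 in control, 10.61, 10.496, 11.09 and 11.03 in TrbE10, and 10.41, 10.38, 10.25 and 10.33 in TrbE14 hearts. The 3 groups did not overlap, with TrbE14 between the others. Ctss was 2.16-fold higher in TrbE10 than in control hearts (log2 difference 1.11, SE 0.16, adjusted p = 0.00638), and the TrbE14 difference from control was 0.65 (SE 0.16, adjusted p = 0.111). In TrbE14 hearts Ctss lay above every control heart, a difference that SAM called and limma did not, while its substrate Cd74 differed from control by -0.45 and was called by neither.

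Cd83, a surface protein of activated dendritic and B cells that stabilises class II molecules, is given although it was chosen after its values were seen. It measured 8.64, 8.99, 9.11 and 8.82 in control, 8.44, 8.27, 8.40 and 7.73 in TrbE10, and 8.19, 8.25, 7.41 and 7.54 in TrbE14 hearts. Both mutant groups lay below all control hearts, with log2 differences of -0.68 (SE 0.22, adjusted p = 0.158) and -1.04 (SE 0.22, adjusted p = 0.0679), and neither passed the test. In the same list Cd86 and Cd80 had higher means in both mutant groups and Cd40 lower ones, and none was called. The means in control, TrbE10 and TrbE14 hearts were 6.16, 6.77 and 6.35 for Cd86, 6.79, 7.29 and 7.18 for Cd80, and 6.55, 6.28 and 6.21 for Cd40.

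The class I genes, which present peptides from the cytosol to CD8+ T cells and partly lie in the same chromosomal complex, were listed beside them. All 14 were measured and 0 were called by limma in any comparison, or by SAM. At an unadjusted p under 0.05, 2 of 14 were lower in TrbE14 than in control (7.4% of all genes) and 6 of 14 were higher in TrbE10 than in TrbE14 (2.92%). Between TrbE10 and control 1 of 14 differed, being higher (16.8% of all genes in either direction). Against control 10 of 14 lay lower in TrbE14 hearts (median -0.25), and 13 of 14 lay higher in TrbE10 than in TrbE14 hearts (median 0.32). Without control replicate 3, the highest array for this list, 8 of 14 lay lower in TrbE14 than in control hearts (median -0.083) and 13 of 14 lay higher in TrbE10 (median 0.21, against 0.053 with it). B2m, the light chain of class I molecules, measured 13.12, 12.92, 13.59 and 13.04 in control, 13.29, 13.03, 13.27 and 13.30 in TrbE10, and 12.88, 12.83, 12.70 and 12.36 in TrbE14 hearts. All TrbE14 hearts lay below the others, by -0.47 against control (SE 0.16, adjusted p = 0.241) and with 0.53 for TrbE10 against TrbE14 (SE 0.16, adjusted p = 0.611). Without control replicate 3 the B2m difference between TrbE14 and control was -0.33.

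Nlrc5, the class I counterpart of Ciita, had the largest difference in that list. It measured 7.15, 6.63, 8.59 and 6.70 in control, 6.87, 6.34, 6.68 and 6.72 in TrbE10, and 5.97, 5.95, 5.87 and 5.20 in TrbE14 hearts. The TrbE14 hearts lay below all others, with a log2 difference from control of -1.52 (SE 0.37, adjusted p = 0.112), or -1.08 without control replicate 3. The second probe of Nlrc5 did not pass the filter. Tap1, which carries peptides into the endoplasmic reticulum, differed by -0.52 in TrbE14 against control (SE 0.34, adjusted p = 0.512), and by -0.10 without control replicate 3, which at 7.78 was the highest of the 12 arrays.

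Likeness was taken as Pearson's r with the mean of the 6 members, each centred. Of the 10 gene names with the highest r outside the members (0.82 to 0.89, n = 12 arrays), 5 were H2 genes of the class I families, H2-K1 (0.87), H2-K2 (0.86), H2-D1 (0.84), H2-Q7 (0.83) and H2-T9 (0.83). The sixth named gene was Tdgf1 (0.82), and 4 were probes listed without a gene symbol. Class I genes are near-identical in sequence, so a probe for one may also have bound transcripts of others. Once the group means had been subtracted, r was 0.80 for H2-K1, 0.77 for H2-K2, 0.78 for H2-D1, 0.71 for H2-Q7 and 0.73 for H2-T9. Other gene names then ranked above them. The 10 highest (0.86 to 0.93) held 0 H2 genes, and Fam49a (0.92), Zfp420 (0.91), Gm11517 (0.90), Eif4ebp1 (0.89), P2ry6 (0.87) and Cdh8 (0.86) were those with a symbol. Fam49a was itself called in both mutants (log2 difference 0.79 in TrbE10, adjusted p = 0.00750, and 0.67 in TrbE14, adjusted p = 0.0263). P2ry6 was called in TrbE10 (0.82, adjusted p = 0.00888) and not in TrbE14 (0.41, adjusted p = 0.204).

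**Figure D3:**
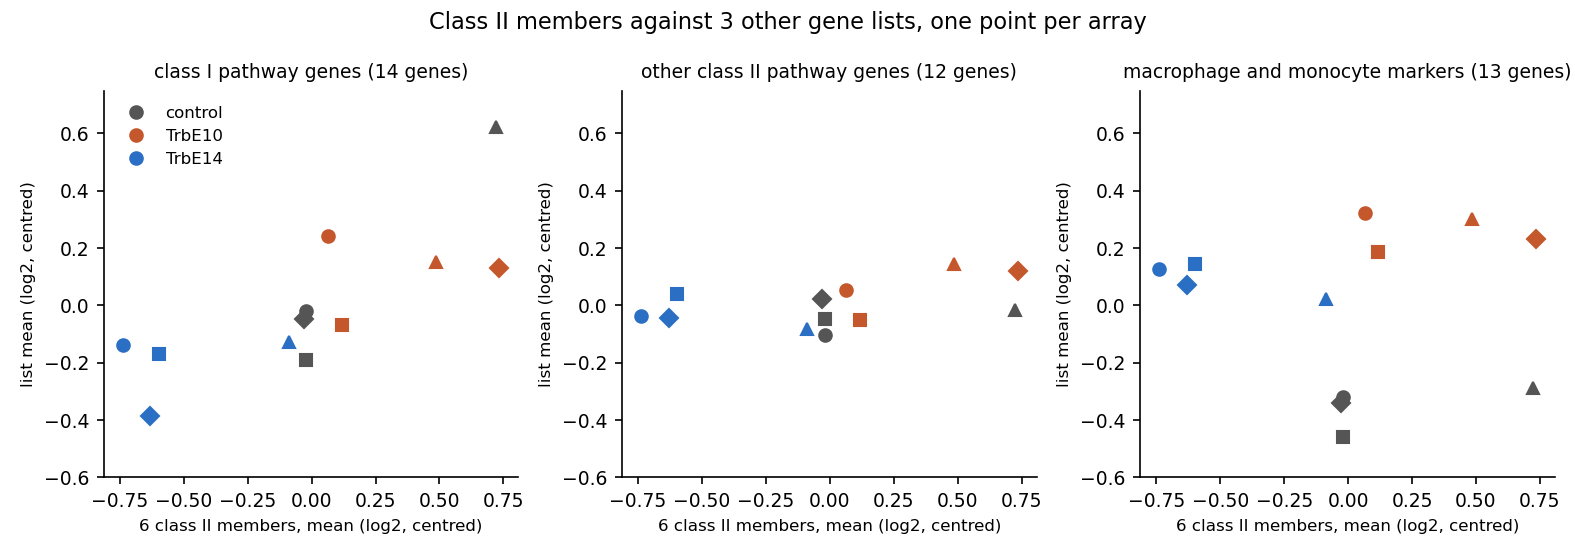
Each point is an array, with the mean centred log2 signal of the 6 class II members on the x axis and that of another gene list on the y axis, coloured by group and with a symbol for each replicate number as in the plot of the members by array. The class I list follows the members over the 12 arrays (r = 0.78, and 0.65 within groups, which without control replicate 3 became 0.74 and 0.21), whereas the other class II pathway genes do so less closely (r = 0.45) and the macrophage and monocyte markers show no such order (r = -0.033), control hearts lying lowest.

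Markers of the cells that carry class II molecules are given because they could bear on the members' values, and their part in the result was not tested. Of 10 dendritic cell markers 6 were measured, and 0 were called by limma or by SAM. At an unadjusted p under 0.05, 1 was lower in TrbE14 than in control (7.4% of all genes). Xcr1, Clec9a, Cd209a and Itgae, which define dendritic cell types, did not pass the filter. The brightest of the list were Siglech, with log2 differences of -0.19 and -0.11 from control and a pair of further probes above background on 0 arrays, and Batf3, with 0.30 and -0.11. Itgax and Flt3, dimmer markers given after their values were seen, differed from control by -0.59 (SE 0.26, adjusted p = 0.351) and -0.58 (SE 0.32, adjusted p = 0.447) in TrbE14 and by 0.13 and -0.026 in TrbE10 hearts. All TrbE10 arrays lay above all TrbE14 arrays for Itgax, a dendritic cell and macrophage integrin (log2 difference 0.72, SE 0.26, adjusted p = 0.769). Flt3, a growth factor receptor of dendritic cells and their precursors, overlapped between groups and was well above background on 7 of the 12 arrays. Zbtb46 and Ccr7, the remaining measured markers, went the other way in TrbE14 hearts. Their means were 5.90 and 4.94 in control, 5.90 and 5.55 in TrbE10, and 6.21 and 5.21 in TrbE14 hearts. The summed signal of the list was 13452 to 18349 in control, 10275 to 17967 in TrbE10 and 6193 to 20758 in TrbE14 hearts, and was mostly that of the single Siglech probe.

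Some macrophage and monocyte markers rose in the mutant groups. Of 14 markers 13 were measured, and 11 lay higher in TrbE10 and 12 in TrbE14 than in control. Fcgr1, Timd4 and Cd163 passed the filter only through mutant groups, in which their means were higher. The filter therefore partly set these counts, and also the count of calls that includes Fcgr1. By limma 3 and 1 of the 13 were called higher and 0 lower, where 1.93% and 0.66% of all genes were called in either direction. Csf1r, the receptor for the macrophage growth factor, rose by 1.14 in TrbE10 (SE 0.08, adjusted p = 1.12e-04) and by 0.92 in TrbE14 hearts (SE 0.08, adjusted p = 6.07e-04). Cd68, a lysosomal protein, rose by 0.60 in TrbE10 hearts (SE 0.11, adjusted p = 0.0239), and its TrbE14 difference of 0.26 did not pass. Fcgr1, a receptor for antibodies, was called higher in TrbE10 hearts (adjusted p = 0.0150), and no fold is given because its probe was well above background on 0 of the 4 control arrays. The brightest probe of Itgam gave -0.088 and 0.044, whereas a dimmer one was called in TrbE10 (0.60, SE 0.13, adjusted p = 0.0392). The summed signal of the list was 14845 to 16365 in control, 21646 to 23144 in TrbE10 and 18978 to 22657 in TrbE14 hearts, so that both mutant groups lay above control. Csf1r alone gave 4541 to 5505 of these sums in control, 9783 to 11415 in TrbE10 and 8757 to 9609 in TrbE14 hearts. Without it the sums were 10180 to 11106, 11730 to 12026 and 10220 to 13597, so that TrbE14 and control overlapped. Most of these remaining sums was the brightest Itgam probe, at 12.71 to 12.91 in control and 12.61 to 13.09 in TrbE14 hearts. They therefore say little about the other markers. The summed signal of the class II members was 15972 to 27832, 16677 to 30193 and 9226 to 17664.

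**Figure D4:**
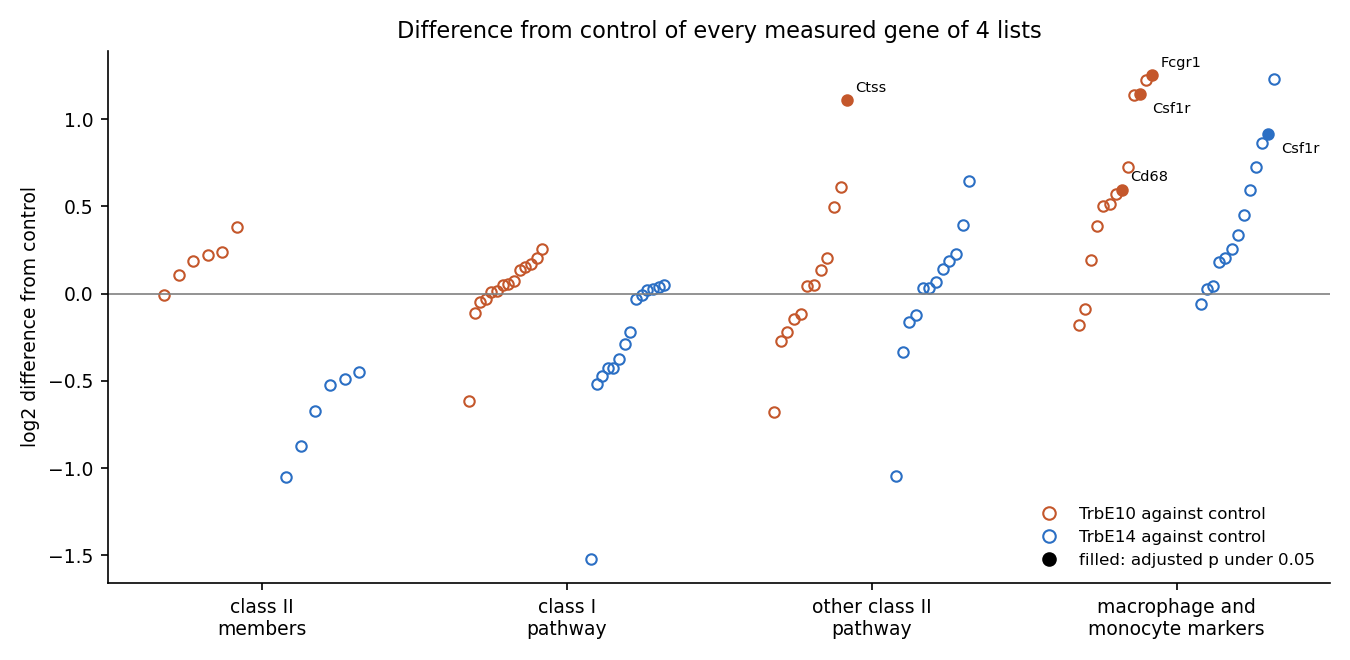
The log2 difference from control (y axis) is plotted for every measured gene of 4 lists (x axis), TrbE10 and TrbE14 side by side and sorted within each, with filled points for an adjusted p under 0.05. The class II members lie from -1.05 to -0.45 in TrbE14 and from -0.0080 to 0.38 in TrbE10, whereas the macrophage markers, with the called Csf1r, Cd68 and Fcgr1, lie mostly above 0 in both.

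B cell and T cell markers gave no call by limma. Of 8 B cell markers 5 were measured, and Ms4a1, Pax5 and Blk were not. Cd79b, a part of the B cell receptor, gave 0.97 in TrbE10 (SE 0.22, adjusted p = 0.0559) and 0.93 in TrbE14 hearts (SE 0.22, adjusted p = 0.106). For Cd79a, its partner, no value is given, since the measured probe of that name, counted among the 5, is placed on chromosome 12 and the gene on chromosome 7, where its other probe was well above background on 0 arrays. For the other 157 probes of the listed genes the chromosomes of probe and gene matched. Of 8 T cell markers 5 were measured, Cd3g, Cd8a and Cd5 not among them, and the brightest, Cd28 and Cd4, differed from control by -0.0083 and -0.053 in TrbE10 and by 0.28 and 0.026 in TrbE14 hearts. By limma 0 of the 5 B cell and 0 of the 5 T cell markers were called in any comparison. SAM called 1 of them, Cd79b in TrbE10 against control, where it called 400 of 18016 genes. At an unadjusted p under 0.05, 1 B cell marker was higher and 1 lower in TrbE10 (16.8% of all genes in either direction), and 1 was higher in TrbE14 than in control. The share of all genes higher in TrbE14 was not taken, so that last count has no background to be read against. Between the mutant groups 1 T cell marker was higher in TrbE10 (2.92% of all genes). Summed signals ranged from 215 to 394 for the B cell list and from 643 to 905 for the T cell list over all arrays.

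Endothelial and fibroblast markers, each a list of 8 measured genes, included 2 and 1 called by limma in TrbE10 and 1 and 1 in TrbE14 hearts, all higher than control. Of all genes 1.93% were called in TrbE10 and 0.66% in TrbE14 hearts, in either direction. SAM called 1 endothelial and 4 fibroblast markers in TrbE10 (400 of 18016 genes in all) and 2 of each in TrbE14 hearts (239 of 18018). Vwf, the von Willebrand factor, rose by 1.09 in TrbE10 (SE 0.20, adjusted p = 0.0215) and by 1.03 in TrbE14 hearts (SE 0.20, adjusted p = 0.0451), by its brighter probe, while its dimmer probe gave 0.14 and 0.45 and was not called. Eng, an endothelial TGF-beta coreceptor, rose by 0.71 in TrbE10 hearts (SE 0.15, adjusted p = 0.0412). Dcn, a matrix proteoglycan, rose by 0.39 in TrbE10 (SE 0.08, adjusted p = 0.0376) and by 0.50 in TrbE14 hearts (SE 0.08, adjusted p = 0.0190). Over the 12 arrays the mean of each list gave r with the mean of the members of -0.35 for the endothelial and -0.14 for the fibroblast list, given as a description of arrays that share their normalization. Of the 8 cardiomyocyte markers 0 were called by limma or SAM in any comparison. At an unadjusted p under 0.05, 1 was lower in TrbE10 (16.8% of all genes in either direction) and 1 in TrbE14 than in control (7.4% lower).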

How the data were processed

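Left ventricle RNA was hybridised to Agilent one-colour 8x60K arrays, 4 per group. The authors deposited the scanner intensity of each spot (Agilent Feature Extraction 10.5, per the submitters' processing notes, already background-corrected) and a table of quantile-normalized log2 values, which was used as an alternative. Groups came from the labels, and nothing there ties replicates to litters, so p-values measure the spread between these samples.

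From the processed intensities, control spots and outlier-flagged spots were left out, log2 values were quantile normalized, and spots of a probe averaged. Probes well above background on at least 3 of 4 arrays of a group (75%) were fitted in limma 3.58.1 (R 4.3.3) with all 3 groups. P-values were Benjamini-Hochberg adjusted over the 24593 kept probes in each comparison, with a threshold of 0.05. A gene was read from its kept probe of highest mean signal. Depth has no meaning for arrays, whose number (4 per group) limits precision. The fit was tested on simulated data. Array positions are those of mm9, promoters those of GRCm38.p6.

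The members and gene lists were chosen with earlier results of these data known. Named were all members, the called genes of the pathway lists or otherwise the 3 with the largest difference from control, H2-Ea, Ifng and Irf1, the 10 genes most correlated with the members over arrays and within groups, and the called and 2 brightest markers of each list.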

Additional observations from a re-analysis of the deposited data

Results flagged for a closer look

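In some groups 1 heart lay apart from the other 3 of its group by Dixon's criterion, which flags about 1 in 20 groups by chance. Among the members 6 of 24 groups did so, counted over every member probe on the same hearts. Because the members varied together, these are not independent checks, and 6 of 24 cannot be set against 1 in 20. Control replicate 3 was highest for H2-Aa (10.53) and H2-DMa (8.37), TrbE14 replicate 3 was highest for H2-Aa (9.30) and H2-Eb1 (12.18), and Ciita, below background there, was highest in control replicate 1 (3.78) and TrbE10 replicate 1 (4.34).

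H2-Ea measured 5.55 in control replicate 2, the only array on which its probe was well above background. Among the other genes named, B2m was lowest in TrbE10 replicate 2 (13.03), Nlrc5 in TrbE14 replicate 4 (5.20), Siglech in TrbE14 replicate 4 (12.53) and Actc1 in control replicate 4 (17.91), and Csf1r was highest in control replicate 3 (12.43). What sets these hearts apart was not tested.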

How the results depend on the processing

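The count of members called in TrbE14 against control was 0 and became 1, H2-Aa in each case, with normexp background correction (adjusted p = 0.0358), with the authors' normalized values (0.0455), with the mean over the gene's probes (0.0474) and with the replicate block (0.0338). Leaving out 1 array at a time gave 0 to 1, the 1 being H2-Aa without TrbE10 replicate 4 (0.0475). Over the alternatives with an adjusted p, H2-Aa lay between -1.17 and -0.87 with an adjusted p of 0.0338 to 0.137. The replicate number was not taken as a pairing, since deviations of same-numbered hearts correlated at -0.24 to 0.079 between control and either mutant group and at -0.0083 to 0.48 between TrbE10 and TrbE14, where 3 of 4 pairs lay above 0.1, and 6 of 12 arrays correlated best with their own number. The replicate block called 257, 119 and 0 of all genes in the 3 comparisons against 348, 119 and 0 without it, and changed no other count of the lists. SAM called 239 of all genes in TrbE14 against control. The other class II pathway genes called in TrbE14 against control went from 0 to 1 with normexp (Cd83) and with SAM (Ctss).

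The sign of H2-Aa in TrbE10 against control, -0.0080, turned to 0.17 without control replicate 3, 0.11 without TrbE10 replicate 1 and 0.063 without TrbE10 replicate 2, in a range of -0.15 to 0.17. That of H2-Eb1 turned to -0.078 without TrbE10 replicate 4, in a range of -0.078 to 0.27. With an array left out, the median of the members ranged from 0.088 to 0.40 in TrbE10 against control (lowest without TrbE10 replicate 4, highest without control replicate 3, and 0.11 and 0.12 without control replicates 2 and 1), from -0.78 to -0.40 in TrbE14 against control and from 0.72 to 1.08 in TrbE10 against TrbE14. The other 272 counts and medians were unchanged, meaning an equal count or a median that moved by less than 0.33 log2 units, the pooled SD of the members' mean. A further 369 single-gene values stayed on their side of the threshold with the same direction. The counts of members with an exact p under 0.05, which like the list values without control replicate 3 were chosen after seeing the data, were 0, 3 and 3 in each alternative run. The slide block was not run, since no group spans both slides. Ciita, above background on 1 of 12 arrays, is limited by signal.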
